A study of Mus musculus with 6 samples.

Results

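The genes of fatty acid uptake, storage and oxidation were followed in mouse heart through 44 members, which were listed by their known functions. They stand among 21938 gene names on the array that match a RefSeq symbol or synonym. Each gene was read by 1 probe, the one with the highest mean log2 processed intensity over the 6 arrays. All 44 were well above background on all 6 arrays, so all 44 were tested and none was lost to the filter on dim probes. Tail-suspension hangs a mouse by its tail so that its hindlimbs bear no load, and is used to imitate weightlessness, and the study asked which genes of the myocardium respond to it. Total RNA of cardiac muscle from male C57BL/6 mice was measured on 1-colour Agilent arrays, with 3 arrays of sham mice, which were not suspended but were housed and fed alike, and 3 arrays of mice suspended for 28 days. The labels give an age of 10 weeks at the start of suspension and also 11 weeks as the age of all animals, and these entries cannot be reconciled with a suspension of 28 days if the second is the age at sampling, while the study's methods give yet another age. The series describes 3 mice per group, and no allele, drug or transgene is named for either group.

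Fatty acids are the main fuel of the adult heart. Lipoprotein lipase frees them from circulating triglyceride, membrane and cytosolic carriers bring them into the cardiomyocyte, and acyl-CoA synthetases activate them to acyl-CoA, which is either stored as triglyceride or passed into mitochondria by the carnitine shuttle. Malonyl-CoA inhibits the entry step of that shuttle, and inside the mitochondrion the spiral of beta-oxidation shortens the chain to acetyl-CoA while its electrons reach the respiratory chain through the electron transfer flavoprotein.

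The probes that read these genes are 60 bases long, and 2 of them are shown because they stand for changes in opposite directions. Lipe, a lipase of stored fat, rose, while Crat, a carnitine acyltransferase, fell. Each sequence reads through in at least 1 frame without a stop codon, and the files do not state which part of the transcript a probe covers.
Lipe, chr7:26165828-26165887 of mm9, minus strand: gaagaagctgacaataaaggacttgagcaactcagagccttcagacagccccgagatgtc
Crat, chr2:30265479-30265538 of mm9, minus strand: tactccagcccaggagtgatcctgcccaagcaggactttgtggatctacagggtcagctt

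Levels are given on a log2 scale as the processed intensity relative to the 75th percentile of all spots of the same array, so that a level of 0 is the brightness of that percentile, and a level of 1 probe is not set against that of another. The arrays had between 50.9% and 53.4% of their probes well above background and no saturated spot, and all lay on 1 slide read in 1 scan. Across the tested probes the correlation of arrays was 0.994 to 0.996 within sham, 0.991 to 0.995 within tail-suspension and 0.978 to 0.984 between the groups, over probes that are not independent of each other. The number of arrays limits the precision. Groups were compared with limma, with Benjamini-Hochberg adjustment over 28030 tested probes and a threshold of 0.05, and the p-values measure the spread between these arrays. With 3 arrays in each group, the smallest two-sided p that exact permutation can give is 0.1. In whole tissue, fewer cells of a type and less RNA per cell cannot be told apart.

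One array stood apart at these genes. Tail-suspension replicate 2 was the highest of the 3 tail-suspension arrays at 34 of the 44 members (77.3%), against 36.8% of all genes read by 1 probe. The median difference of replicate 2 from the mean of replicates 1 and 3 was 0.22 over the members and -0.012 over all genes. It was the highest at 13 of 13 genes of mitochondrial beta-oxidation, at 5 of 5 of the carnitine shuttle and at 3 of 3 of electron transfer, but at 1 of 5 of the acyl-CoA synthetases. Tail-suspension replicate 3 was the lowest of its group at 25 members and replicate 1 at 12. Within sham, replicate 1 was the highest at 24 members (54.5%, against 38% of all genes) and replicate 3 the lowest at 27. On the slide, the 3 sham arrays and tail-suspension replicate 1 shared a row. Tail-suspension replicates 2 and 3 lay in the other, which held no sham array. What sets replicate 2 apart was not tested, and results that rest on it are given with and without it.

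**Figure D1:**
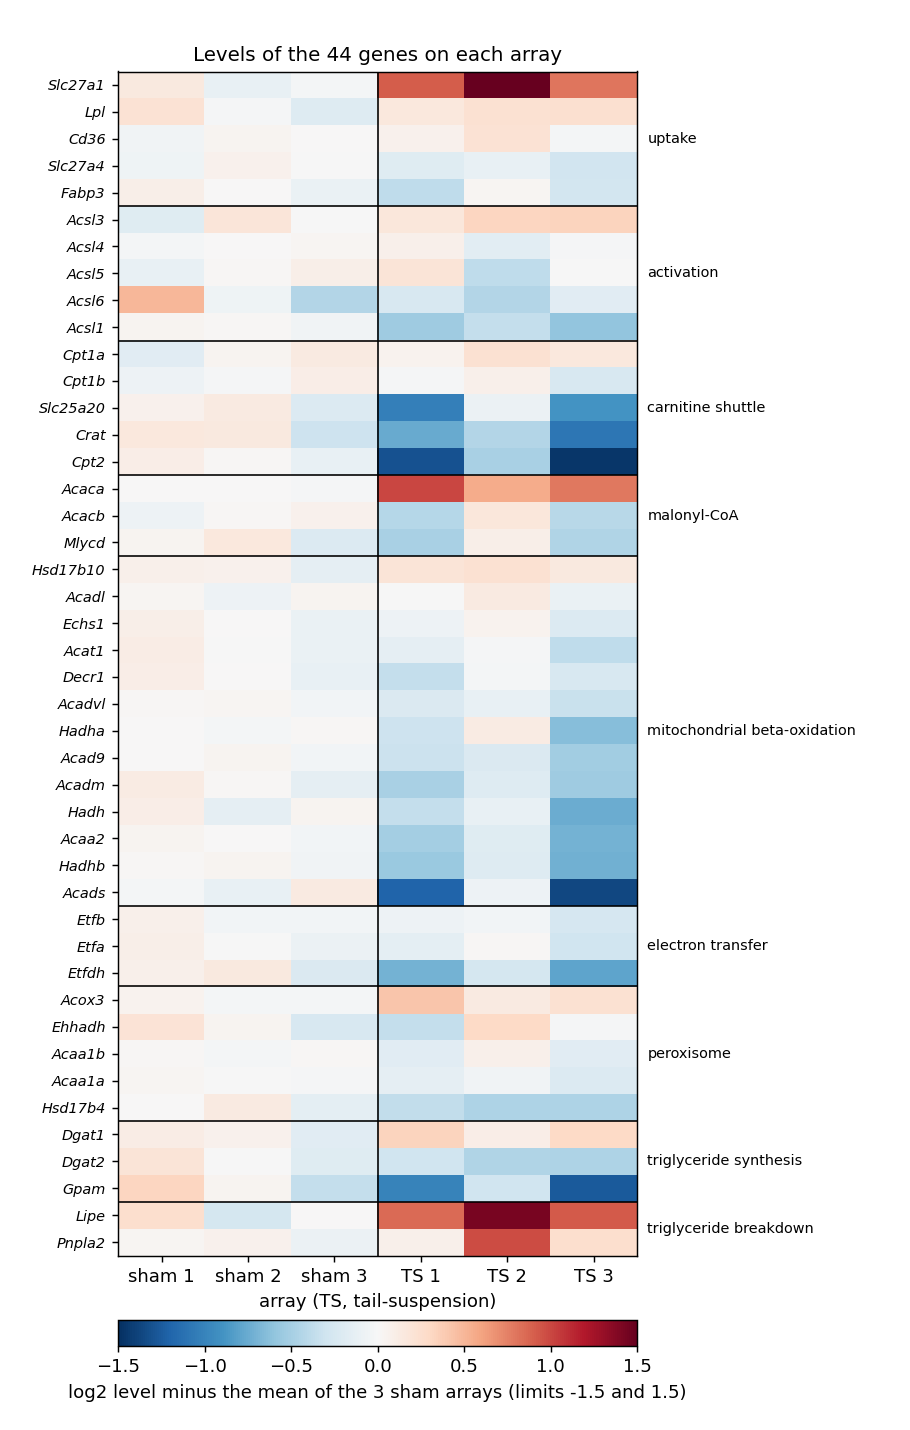
Levels of the 44 genes on each of the 6 arrays, with genes in rows grouped by role and arrays in columns (TS, tail-suspension). Colour gives the log2 level minus the mean of the 3 sham arrays, from blue for lower to red for higher, with colours held at -1.5 and 1.5. In the carnitine shuttle and beta-oxidation, TS 1 and TS 3 are bluer than TS 2, which was the highest tail-suspension array at 34 of 44 genes.

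Of the 44 members, 7 passed the adjusted threshold (15.9%), against 21.7% of 14195 genes read the same way and 20.4% of all tested probes, so the share of the members was not above that of genes at large. Slc27a1, Lipe and Acaca were higher in tail-suspended hearts, which is 3 members against 10.5% of all genes in that direction. Cpt2, Crat, Acsl1 and Hsd17b4 were lower, which is 4 members against 11.2% of all genes. The groups did not overlap at 20 members, 6 higher and 14 lower, where 47.5% of all genes did not overlap and 25.7% did so with lower values after suspension. The fold change lay below 0 at 32 of 44 members (72.7%), against 52.9% of all genes, and its median was -0.18 against -0.025. A lean below 0 was not seen at the members alone. Of the 9 cardiomyocyte markers read below, 7 lay below 0 (77.8%), with a median of -0.12. An unadjusted p under 0.05 was reached by 17 members, against 40% of all genes.

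The calls depended on single arrays. Without tail-suspension replicate 2, 16 of 44 members passed (36.4%), 3 higher and 13 lower, against 20.6% of all genes. Without sham replicate 1, Acaca and Lipe passed (9.4% of all genes), and without sham replicate 2, Acaca alone did (6.72% of all genes). Without sham replicate 3, 6 members passed (15.4% of all genes), namely Acaca, Acsl1, Crat, Dgat2, Hsd17b4 and Lipe. Without tail-suspension replicate 1 (12% of all genes) and without replicate 3 (7.79% of all genes), Acaca, Lipe and Slc27a1 passed. Acaca was thus the only member past the threshold whichever array was left out. When slide row entered as a block, Acaca was the only member that passed (1.92% of all genes). Since the other row held no sham array, the block fit sets tail-suspension replicate 1 alone against the sham arrays. Its differences are those of that row by itself (Acaca 1.006 and Cpt2 -1.31 in each). The row that held both groups had 1 tail-suspension array, so a fit within it assumes that this array varies like sham and checks no spread of its group. In that fit Acaca, Acads and Cpt2 passed (2.59% of all genes).

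**Figure D2:**
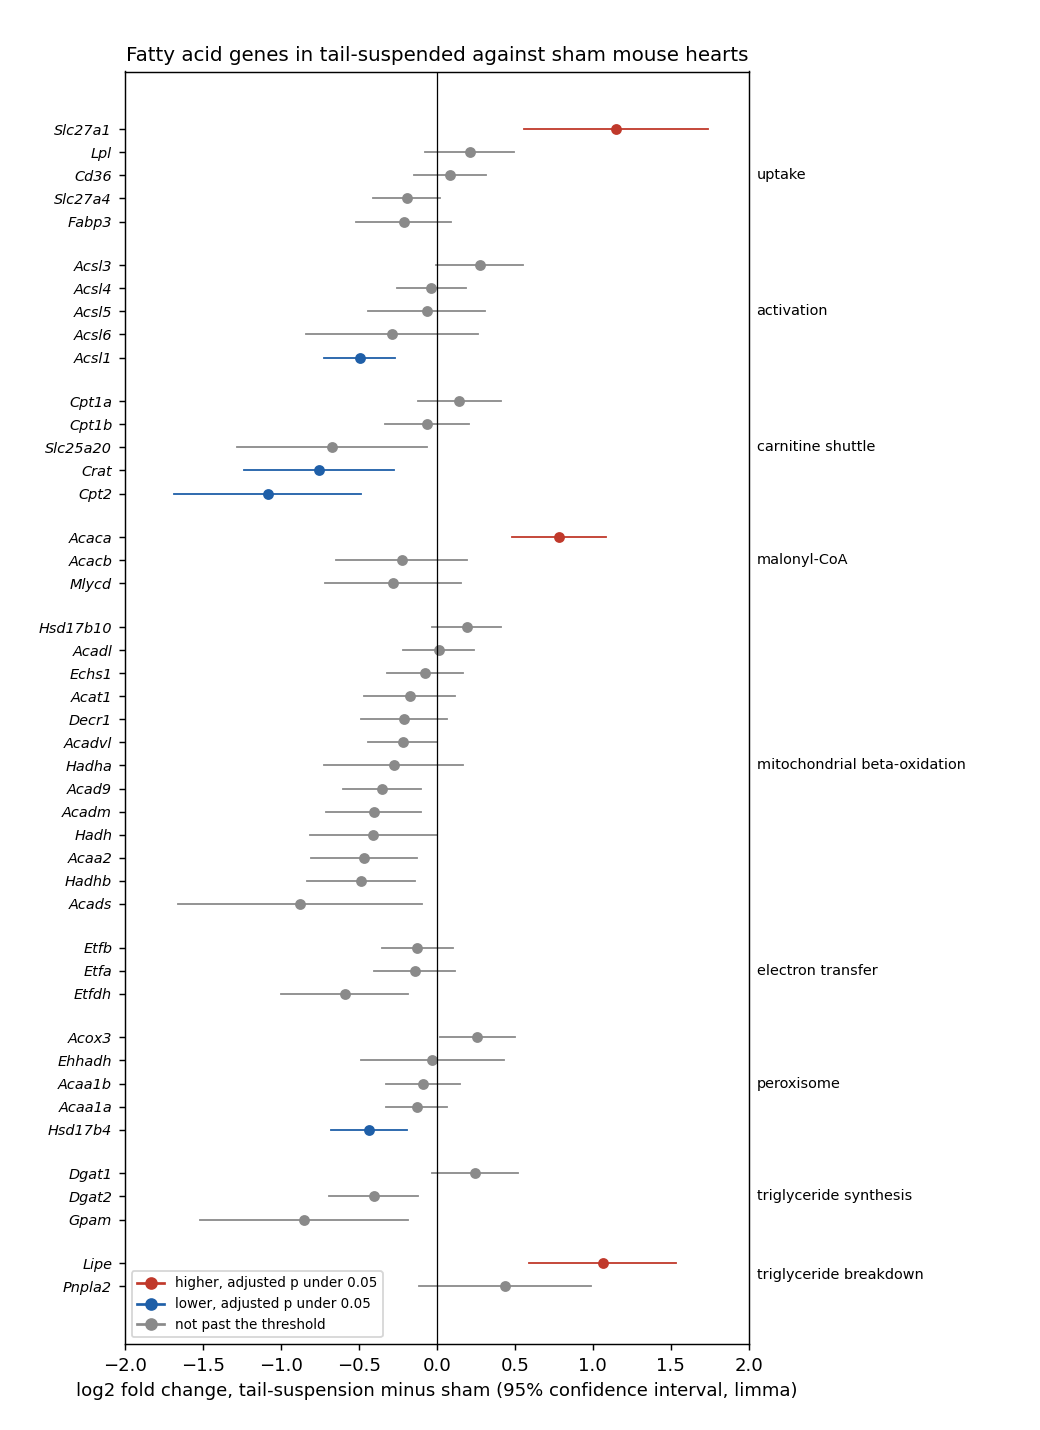
Log2 fold change of each of the 44 genes, tail-suspension minus sham, grouped by role. Points are limma estimates over 3 arrays per group and bars their 95% confidence intervals, with red for higher and blue for lower past an adjusted p of 0.05 and grey for the others. The 3 red points are Slc27a1, Acaca and Lipe, and 32 of 44 points lie left of 0.

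Among the genes of uptake, 1 of 5 passed the threshold, against 21.7% of all genes, and the median fold change was 0.08. Slc27a1, a fatty acid transport protein of the cell membrane, had levels of 3.25, 2.98 and 3.06 on sham replicates 1, 2 and 3 and of 4, 4.83 and 3.90 on tail-suspension replicates 1, 2 and 3. All 3 tail-suspension arrays lay above all sham arrays, with replicate 2 far above the rest. Slc27a1 was 2.22-fold higher (log2 difference 1.15 with a standard error of 0.25, limma adjusted p = 0.0251), and the difference was 0.85 without replicate 2 (adjusted p = 0.0104). Its probe lies at chr8:74110256-74110315 of mm9 on the plus strand. The other genes of this step did not pass. Cd36, the main fatty acid translocase of heart muscle, had levels of 5.72, 5.81 and 5.78 in sham and 5.83, 5.99 and 5.74 after suspension, which overlapped, with a difference of 0.08 (95% interval -0.15 to 0.31). For Fabp3, the fatty acid binding protein of the cardiomyocyte cytosol, the levels were 8.997, 8.92 and 8.81 in sham and 8.53, 8.93 and 8.63 after suspension, with a difference of -0.21 (95% interval -0.52 to 0.09). Tail-suspension replicate 2 lay within the sham range of Fabp3 and the other 2 suspended arrays below it. The second Fabp3 probe, which shares 51 positions with the first, gave -0.10. Lpl, lipoprotein lipase, was at 8.89, 8.66 and 8.48 in sham and 8.84, 8.91 and 8.91 after suspension, a difference of 0.21 (95% interval -0.08 to 0.50), and its suspended arrays lay close together within and just above the sham range. The dimmer Lpl probe shares no position with the first and differed by 0.39 (95% interval 0.02 to 0.76), with overlapping groups and without passing (limma adjusted p = 0.118). Slc27a4, another transport protein, did not overlap between the groups, with a difference of -0.19 (adjusted p = 0.164).

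Of the 5 acyl-CoA synthetases, which activate fatty acids to acyl-CoA, 1 passed, where 21.7% of all genes did. Acsl1, the main form of the heart, was at 7.35, 7.31 and 7.25 in sham and at 6.77, 6.94 and 6.71 after suspension. The suspended arrays lay below all sham arrays and close to each other. Acsl1 was 1.41-fold lower (log2 difference -0.50 with a standard error of 0.10, limma adjusted p = 0.0186), and the difference was -0.56 without replicate 2 (adjusted p = 0.0158). Its second probe had levels of 3.88, 3.86 and 3.68 in sham and 3.07, 3.68 and 2.99 after suspension, with a difference of -0.56 that did not pass (adjusted p = 0.0824), and on it tail-suspension replicate 2 lay just inside the sham range. Acsl3, Acsl4, Acsl5 and Acsl6 had differences between -0.29 and 0.27, with overlapping groups. Replicate 2 was the lowest suspended array for Acsl4, Acsl5 and Acsl6, unlike at most other members.

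The carnitine shuttle held the lowest median of all roles, -0.67, which over its 5 genes is the value of Slc25a20 alone. Of the 5, 2 passed, both lower, where 11.2% of all genes passed as lower. Cpt2, the acyltransferase that restores acyl-CoA on the inner side of the mitochondrial membrane, was at 6.14, 6.05 and 5.93 in sham and at 4.73, 5.56 and 4.58 after suspension. Replicates 1 and 3 of suspension lay far below sham, and replicate 2 lay between them and the sham arrays. Cpt2 was 2.12-fold lower (log2 difference -1.09 with a standard error of 0.25, limma adjusted p = 0.0301), and -1.39 without replicate 2 (adjusted p = 0.00307). The second Cpt2 probe shares no position with the first and showed the same order of arrays. Its levels were 1.88, 1.80 and 1.30 in sham and -0.05, 0.98 and -0.15 after suspension, a 2.64-fold lower mean (-1.40, adjusted p = 0.03 by limma). Crat, which moves acetyl groups between carnitine and CoA, was at 1.55, 1.55 and 1.09 in sham and 0.64, 0.96 and 0.32 after suspension, with sham replicate 3 the lowest sham array and nearest to the suspended ones. Crat was 1.69-fold lower (log2 difference -0.76 with a standard error of 0.20, limma adjusted p = 0.0427), and the difference was -0.92 without replicate 2 (adjusted p = 0.0287).

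Slc25a20, the carrier that exchanges acylcarnitine for carnitine across the inner membrane, was at 3.34, 3.41 and 3.06 in sham and 2.24, 3.19 and 2.37 after suspension. Replicate 2 lay within the sham range, while replicates 1 and 3 lay below every sham array. The difference of -0.67 (95% interval -1.28 to -0.06) did not pass with all arrays (adjusted p = 0.105) and was -0.96 without replicate 2 (adjusted p = 0.0114). Both forms of carnitine palmitoyltransferase 1, which catalyses the entry step, had brighter probes that overlapped between groups. Cpt1b, the muscle form, was at 5.82, 5.87 and 5.99 in sham and 5.88, 5.96 and 5.65 after suspension, a difference of -0.06 (95% interval -0.33 to 0.21). Its dimmer probe was at 4.53, 4.61 and 4.68 in sham and 5.01, 5.01 and 4.88 after suspension, without overlap, and passed as higher (0.36, adjusted p = 0.0354 by limma). The probes of Cpt1b therefore gave different calls, and share no position. Cpt1a, the form of liver and many other tissues, was at 1.92, 2.14 and 2.22 in sham and 2.14, 2.32 and 2.26 after suspension, a difference of 0.15 (95% interval -0.12 to 0.41), and its dimmer probe differed by -0.23, without overlap and without passing (adjusted p = 0.152). No direction can be given for Cpt1a or Cpt1b from these probes, and the mean over the probes of each gene turned the sign of the difference, to -0.04 for Cpt1a and 0.15 for Cpt1b.

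**Figure D3:**
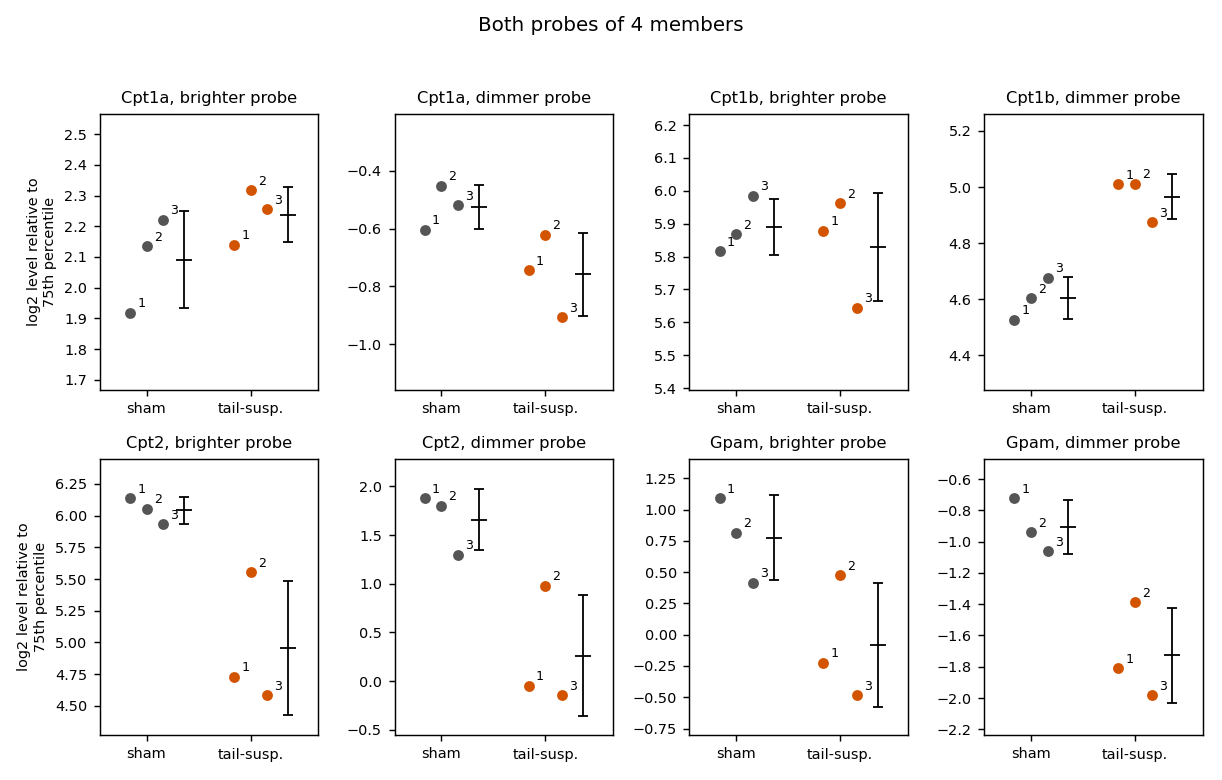
Levels on each array from the brighter and the dimmer probe of Cpt1a, Cpt1b, Cpt2 and Gpam, as log2 of the processed intensity relative to the 75th percentile of the array. Numbers mark the replicates, and the bar beside each group gives its mean ± SD over 3 arrays. Both probes of Cpt2 and of Gpam had lower means after suspension, with replicate 2 the highest suspended array, while the probes of Cpt1a differ in direction and only the dimmer probe of Cpt1b passed the threshold.

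Malonyl-CoA is made by acetyl-CoA carboxylases and removed by malonyl-CoA decarboxylase. Acaca, carboxylase 1, which supplies fatty acid synthesis, was at 1.22, 1.22 and 1.20 in sham and 2.22, 1.77 and 2.003 after suspension. The sham arrays lay close together, and every suspended array lay above them, here with replicate 2 the lowest. Acaca was 1.72-fold higher (log2 difference 0.78 with a standard error of 0.13, limma adjusted p = 0.011), and the fits that lacked 1 array ranged from 0.67 to 0.90. A second probe called it higher by 0.81 (adjusted p = 0.0152), but shares 59 positions with the first and is no separate reading. Another, dimmer one was 0.92 higher and did not pass (adjusted p = 0.0992), and the last was too dim to be tested. Acacb, carboxylase 2 of the mitochondrial surface, was at 5.84, 5.94 and 5.98 in sham and 5.49, 6.09 and 5.50 after suspension, with replicate 2 above every sham array and replicates 1 and 3 below all of them. Its difference of -0.23 did not pass (adjusted p = 0.382) and was -0.43 without replicate 2 (adjusted p = 0.0325). The dimmer Acacb probe shares no position with the first and had the other sign, 0.12, with overlapping groups (adjusted p = 0.578 by limma). On it, replicates 1 and 3 of suspension lay within the sham range. The mean over both Acacb probes gave -0.05. Mlycd, the decarboxylase, was at 6.10, 6.22 and 5.85 in sham and 5.57, 6.15 and 5.60 after suspension, again with replicate 2 within the sham range, a difference of -0.28 (95% interval -0.72 to 0.16).

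None of the 13 genes of mitochondrial beta-oxidation passed the threshold with all 6 arrays, 11 of 13 had a fold change below 0, and the median was -0.28. Replicate 2 was the highest suspended array at every one of them. Among the acyl-CoA dehydrogenases, which open each turn of the spiral and differ in the chain length they take, Acadm, for medium chains, was at 8.26, 8.15 and 7.996 in sham and 7.65, 7.95 and 7.60 after suspension. The groups did not overlap, and the difference of -0.41 (95% interval -0.71 to -0.10) stayed just outside the threshold (adjusted p = 0.0663 by limma). Without replicate 2 it was -0.51 (adjusted p = 0.0324). Acads, for short chains, had the widest spread of these dehydrogenases, at 2.46, 2.38 and 2.62 in sham and 1.29, 2.41 and 1.12 after suspension. Replicate 2 lay within the sham range and the other suspended arrays far below it, so that the difference was -0.88 with all arrays (adjusted p = 0.101) and -1.28 without replicate 2 (adjusted p = 0.0044). Acadvl, for very long chains, was at 8.65, 8.66 and 8.59 in sham and 8.42, 8.53 and 8.30 after suspension, without overlap, a difference of -0.22 that did not pass (adjusted p = 0.135). Acadl, for long chains, was at 5.78, 5.67 and 5.78 in sham and 5.73, 5.88 and 5.65 after suspension, which overlapped, with a difference of 0.01 (95% interval -0.22 to 0.24) whose sign was the reverse under quantile normalization (-0.04). Acad9, also an assembly factor of respiratory complex I, did not overlap between the groups, with a difference of -0.35 (adjusted p = 0.0563).

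In the later steps of the spiral, too, replicate 2 was the highest suspended array. Hadha, the alpha subunit of the mitochondrial trifunctional protein, was at 5.70, 5.67 and 5.71 in sham and 5.38, 5.82 and 5.06 after suspension, where replicate 2 lay above all sham arrays and replicates 1 and 3 below them. The difference was -0.28 (95% interval -0.72 to 0.17), and -0.48 without replicate 2 (adjusted p = 0.0482). Hadhb, the beta subunit, was at 8.47, 8.49 and 8.40 in sham and 7.90, 8.27 and 7.73 after suspension. Its groups did not overlap, with a difference of -0.49 (95% interval -0.84 to -0.14, adjusted p = 0.0581), and -0.64 without replicate 2 (adjusted p = 0.0146). Acaa2, the mitochondrial thiolase, was near the threshold as well (-0.47, adjusted p = 0.0613), without overlap, and passed without replicate 2 (-0.61, adjusted p = 0.017). Hadh, the dehydrogenase for shorter chains, differed by -0.41 (adjusted p = 0.134). Echs1, Acat1 and Decr1 had differences between -0.21 and -0.08 with overlapping groups. The dimmer Decr1 probe shares no position with the first and differed by -0.66, without overlap and without passing (adjusted p = 0.0933 by limma). Hsd17b10, which also serves isoleucine breakdown, was the one member of this step with suspended arrays above all sham arrays, by 0.19 (adjusted p = 0.178), which did not pass. In all, 6 of the 13 genes passed as lower without replicate 2, where 20.6% of all genes passed, namely Acads, Hadhb, Acaa2, Acadm, Hadha and Acad9. With any other array left out, 0 of the 13 passed by limma.

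Electrons from the dehydrogenases pass through Etfa and Etfb, the subunits of the electron transfer flavoprotein, to Etfdh, the oxidoreductase that hands them to ubiquinone. None of the 3 passed. Etfdh was at 6.93, 6.997 and 6.64 in sham and 6.14, 6.59 and 6.06 after suspension, without overlap, although replicate 2 lay just below the lowest sham array. Its difference of -0.59 (95% interval -0.999 to -0.18) was just outside the threshold (adjusted p = 0.0537 by limma) and was -0.75 without replicate 2 (adjusted p = 0.0204). Etfa and Etfb differed by -0.14 and -0.12.

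Peroxisomes shorten very long and branched chains with enzymes of their own. Hsd17b4, the bifunctional enzyme of that pathway, was at 4.86, 4.999 and 4.72 in sham and 4.48, 4.39 and 4.39 after suspension. The suspended arrays lay close together and below all sham arrays, with replicate 2 beside replicate 3. Hsd17b4 was 1.35-fold lower (log2 difference -0.44 with a standard error of 0.10, limma adjusted p = 0.0304). It was the one call lost when replicate 2 was left out, with a difference of -0.42 (adjusted p = 0.0581). Acaa1a and Acaa1b, near-identical peroxisomal thiolases that a probe may not separate, differed by -0.13 and -0.09, and Ehhadh, a second bifunctional enzyme, by -0.03. Acox3, an oxidase of branched chains, was read by probes whose differences had opposite signs, 0.26 on the brighter and -0.22 on the dimmer, each without overlap and neither past the threshold.

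Storage as triglyceride begins with Gpam, the mitochondrial glycerol-3-phosphate acyltransferase, and ends with the diacylglycerol acyltransferases Dgat1 and Dgat2. Gpam was at 1.09, 0.81 and 0.42 in sham and -0.22, 0.47 and -0.49 after suspension, with replicate 2 just above the lowest sham array. Its difference of -0.85 (95% interval -1.52 to -0.19) did not pass on the brighter probe (limma adjusted p = 0.0733). Without replicate 2 it was -1.13 on that probe (adjusted p = 0.0238). The dimmer probe was at -0.72, -0.94 and -1.06 in sham and -1.81, -1.39 and -1.98 after suspension, without overlap, and passed as lower (-0.82, adjusted p = 0.024 by limma). Dgat2 was at 7.88, 7.68 and 7.52 in sham and 7.39, 7.24 and 7.23 after suspension, without overlap and with replicate 2 beside replicate 3, a difference of -0.41 just outside the threshold (adjusted p = 0.0548). Dgat1 was at 1.59, 1.54 and 1.31 in sham and 1.82, 1.58 and 1.78 after suspension, which overlapped, with a difference of 0.24 (95% interval -0.03 to 0.52).

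Both lipases of stored triglyceride had all suspended arrays above all sham arrays, where 47.5% of all genes lacked overlap in either direction. Of the 2 lipases, 1 passed, against 21.7% of all genes. Lipe, hormone-sensitive lipase, was at -0.97, -1.49 and -1.22 in sham and -0.37, 0.20 and -0.31 after suspension. Lipe was 2.09-fold higher (log2 difference 1.06 with a standard error of 0.20, limma adjusted p = 0.0165). The difference was 0.88 without replicate 2 (adjusted p = 0.0228), which was the highest array, and ranged from 0.88 to 1.19 over the fits that lacked 1 array. Pnpla2, adipose triglyceride lipase, which takes the first fatty acid off triglyceride, was at 5.70, 5.73 and 5.58 in sham and 5.74, 6.65 and 5.93 after suspension. Here replicate 1 lay only just above the highest sham array and replicate 2 far above it, and the difference of 0.44 did not pass (adjusted p = 0.212) and was 0.16 without replicate 2 (adjusted p = 0.306).

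**Figure D4:**
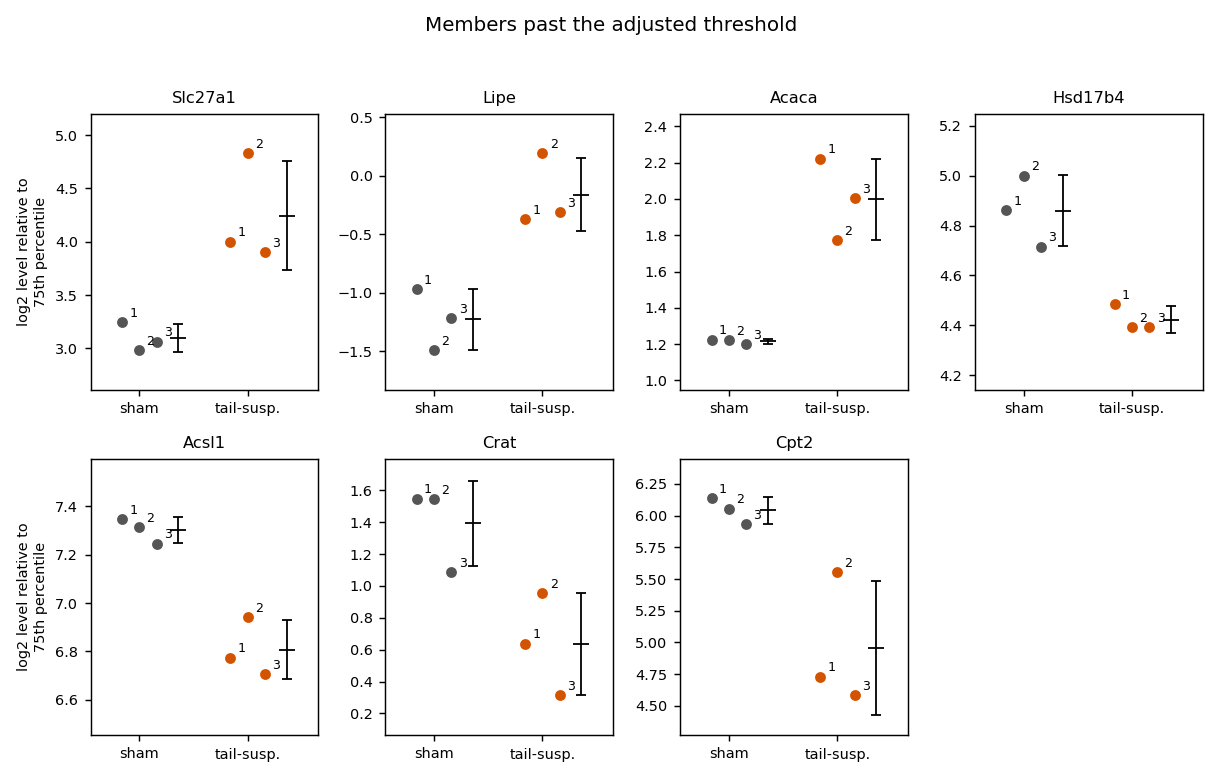
Levels of the 7 genes past the adjusted threshold on each array, as log2 of the processed intensity relative to the 75th percentile of the array, each panel with its own axis. Numbers mark the replicates and the bar beside each group gives its mean ± SD over 3 arrays. No panel shows overlap of the groups, and tail-suspension replicate 2 is the highest suspended array in Slc27a1, Lipe, Acsl1, Crat and Cpt2 but not in Acaca or Hsd17b4.

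Of 73 other genes of lipid handling in the same pathway, 70 were tested, of which 5 passed as higher and 10 as lower, beside 10.5% and 11.2% of all genes, with a median of -0.098 and 45 of 70 below 0. Replicate 2 was the highest suspended array at 33 of the 70. Around lipid droplets and triglyceride, 2 genes were higher and 4 lower. Plin4, a droplet coat protein, was at 6.04, 6.04 and 5.83 in sham and 6.87, 6.96 and 6.90 after suspension, 1.92-fold higher (0.94, adjusted p = 0.00313 by limma), and its suspended arrays lay close together. Plin3, another coat protein, was higher by 0.48 (adjusted p = 0.0459). Abhd5, the coactivator of Pnpla2, was at 1.71, 1.63 and 1.37 in sham and 0.97, 0.94 and 0.79 after suspension, 1.59-fold lower (adjusted p = 0.0142). The acyltransferases Agpat9 and Agpat6 and the phosphatase Lpin1, all of triglyceride synthesis, were lower by -0.66, -0.31 and -0.65. In these 6 genes replicate 2 differed from the mean of the other suspended arrays by between -0.20 (Lpin1) and 0.25 (Agpat9).

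Of 9 tested peroxisomal genes outside the members, 3 passed as lower, against 11.2% of all genes. They were Abcd3, a fatty acid transporter of the peroxisomal membrane (-0.75, limma adjusted p = 0.0113), Pecr, a reductase (-0.62, adjusted p = 0.0389), and Pex11a, which serves peroxisome division (-0.51, adjusted p = 0.0294). At the capillary wall, Gpihbp1, which holds lipoprotein lipase there, was higher by 0.68 (adjusted p = 0.0497), and Lmf1, needed for the lipase to mature, was lower by -0.46 (adjusted p = 0.032). Ucp2, an uncoupling protein of mitochondria, was higher by 0.65 (adjusted p = 0.0305), and Oxct1, the enzyme that lets tissues use ketone bodies, lower by -0.39 (adjusted p = 0.0492). None of the 10 auxiliary genes of mitochondrial oxidation passed, 8 of 10 lay below 0, and replicate 2 was the highest suspended array at all 10.

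Some other lipid genes stood far higher on replicate 2 than on replicates 1 and 3, and are named here after their values were seen. Pdk4, a kinase that turns pyruvate dehydrogenase off, was at 4.81, 4.91 and 4.54 in sham and 4.12, 5.89 and 4.35 after suspension. Angptl4, an inhibitor of lipoprotein lipase, was at 1.87, 2.37 and 1.85 in sham and 0.32, 2.73 and 0.77 after suspension. The acyl-CoA thioesterases Acot1 and Acot2 were at 3.17, 3.37 and 3.28 and 1.36, 1.43 and 1.32 in sham, and at 3.37, 5.17 and 3.54 and 0.94, 2.04 and 0.54 after suspension. In all 4, replicate 2 lay above every other array, whereas replicates 1 and 3 lay below sham for Pdk4, Angptl4 and Acot2. None of the 4 passed, with adjusted p between 0.265 for Acot1 and 0.964 for Pdk4 by limma.

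**Figure D5:**
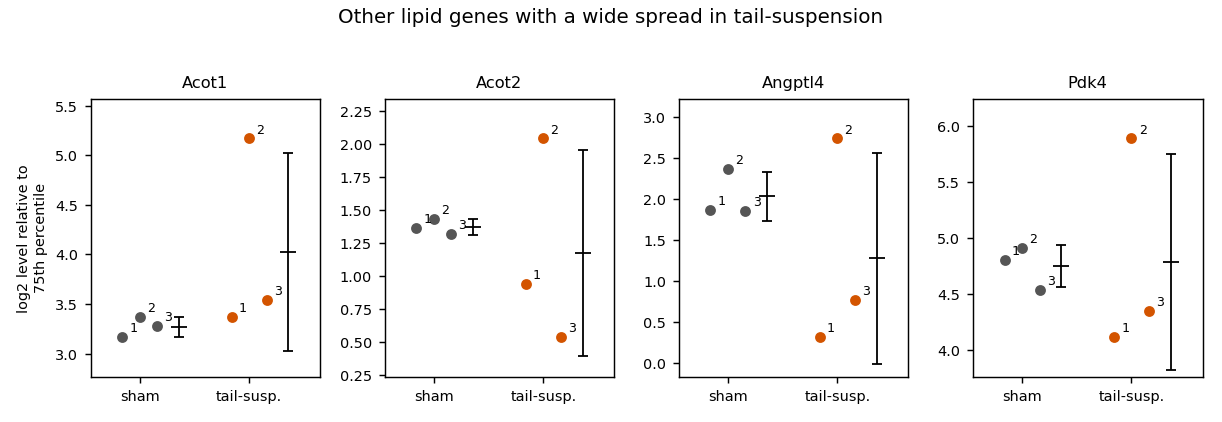
Levels of Acot1, Acot2, Angptl4 and Pdk4 on each array, as log2 of the processed intensity relative to the 75th percentile of the array, each panel with its own axis. Numbers mark the replicates and the bar beside each group gives its mean ± SD over 3 arrays. Replicate 2 of tail-suspension is the highest of the 6 arrays in every panel, and none of the 4 genes passed the threshold.

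The tissue label was checked against marker genes. All 9 cardiomyocyte markers were well above background on all 6 arrays, and 1 of 9 passed (Actc1, lower by -0.33). Their median was -0.12, and 7 of 9 lay below 0 (77.8%), against 52.9% of all genes. The groups did not overlap at 4 of 9, all lower, against 25.7% of all genes without overlap and lower. Replicate 2 was the highest suspended array at 2 of the 9 markers. Their summed linear level, in units of the 75th percentile, was 4420 to 4830 in sham and 4140 to 4220 after suspension. Of 8 adipocyte markers, which bear on Lipe, Pnpla2 and the Plin genes, Lep was above background on no array, and Adipoq, Plin1, Cidec and Retn on at most 1 array of each group. Cfd did not pass (2.90, 95% interval -0.18 to 5.97). Of the 8, all but Lep had their highest level of the 6 arrays on tail-suspension replicate 1, Fabp4 and Pparg by a narrow margin. Cfd was at -2.03, -3.54 and -6.37 in sham and 1.02, -2.45 and -1.82 after suspension. Fabp4, shared with endothelium, differed by 0.22, and Pparg, which other cells express too, was higher by 0.61 (adjusted p = 0.011). The summed level of the 8 was 153 to 172 in sham and 181 to 199 after suspension, nearly all of it from Fabp4. Of the 5 brown adipocyte markers, Ucp1 and Elovl3 were above background on no array, and Cox7a1, which heart muscle also expresses, was lower (-0.57). Cox8b (-0.15) and Cidea (0.22) each lacked overlap, did not pass and differed in sign. The sum of the 5 was 1430 to 1550 in sham and 1100 to 1200 after suspension, nearly all of it from Cox7a1 and Cox8b.

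Endothelial markers, which bear on Cd36, Lpl and Gpihbp1, had a summed level of 36.3 to 38.7 in sham and 27 to 30.5 after suspension. Most of it came from Kdr and Cdh5. Among the 5, Kdr and Emcn passed as lower (-0.55 and -0.50), while Cdh5 (-0.295), Tek (-0.22) and Pecam1 (0.19) did not pass and differed in sign. The 4 fibroblast markers summed to 231 to 250 in sham and 255 to 306 after suspension, mostly from Dcn. Col3a1 passed as lower (-1.88), while Col1a1 (-0.95), Dcn (0.34) and Pdgfra (0.19) did not pass and differed in sign. The 4 macrophage markers summed to 19.8 to 26.1 in sham and 20.6 to 29.9 after suspension, with Cd163 above background on the suspended arrays only. Skeletal muscle markers summed to 14.1 to 15.8 in sham and 6.79 to 8.67 after suspension, nearly all of it from Myl1. Myl1 was lower (-1.04), while Tnnt3 had the other sign (0.62) with overlapping groups and did not pass. Myh1, Myh2, Myh4 and Actn3 were above background on no array. Of the 6 hepatocyte markers, Alb, Apoa1 and Fgb were above background on no array, Ttr was higher, and the sum was 0.325 to 0.552 in sham and 0.498 to 1.06 after suspension. The part of these cell types in the differences of the fatty acid genes was not tested.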

How the data were processed

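Cardiac muscle RNA of 3 sham and 3 tail-suspended mice was hybridised to 1-colour Agilent arrays. The deposited scanner files hold an intensity per spot, which the authors extracted with Agilent Feature Extraction 10.7.1.1, per the labels. The authors also deposited log2 values of the same arrays, used as an alternative; their normalization is not given in the sources used here. In R 4.3.3, each log2 processed intensity was scaled by subtracting the 75th percentile of the non-control spots of its array. Spots carrying an outlier flag were left out and repeated spots averaged. A probe was well above background on an array where at least 50% of its spots had that flag, and was tested where this held on every array of a group. limma 3.58.1 (lmFit, eBayes, no covariates) was run over all tested probes with Benjamini-Hochberg adjustment.

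The members and lists were chosen with earlier results of these data known. Values on each array were given for the members past the threshold without overlap (up to 10) and for a set of central pathway genes, and other members by differences. Gene names are those of the array design, with Eci1 and Eci2 found under older names. Positions are as the files give them (mm9). On simulated data for tail-suspension against sham over 28002 probes, 63% of probes changed by 1 and 90% of those changed by 2 on the log2 scale were called, with 6 unchanged probes. Alternatives covered background correction (normexp, offset 50), normalization, filter, outliers, variance model, array weights, the methods' test, blocks, the probe of a gene and each array left out. A slide block could not be fitted, since all arrays lay on 1 slide.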

Additional observations from a re-analysis of the deposited data

How the results depend on the processing

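For tail-suspension against sham, 3 members were higher and 4 lower with all arrays, beside 3023 and 2683 probes and 5 and 10 other pathway genes. Members lower numbered 8 under normexp, 11 with an intensity trend and robust eBayes and 13 with array weights. In these fits 25%, 31.8% and 36.4% of members passed in either direction, beside 20.9%, 27.8% and 31.6% of all genes. With array weights, 4092 probes and 16 pathway genes were lower and 8 pathway genes higher. Pathway genes higher numbered 3 under quantile normalization and 3 with the authors' log2 values. Without the filter on dim probes, which adds probes to the adjustment, 1 member was higher and 0 lower (16 members had an unadjusted limma p under 0.05), with 1041 and 790 probes and 2 and 1 pathway genes. By the methods' t-test with adjustment, 1 member was higher and 1 lower, with 1532 and 1248 probes and 2 and 5 pathway genes. With the slide row as a block, 1 member was higher and 0 lower (11 members had an unadjusted p under 0.05), with 320 and 177 probes and 0 and 0 pathway genes. In slide row 1 alone, where the single tail-suspension array is assumed to vary like sham, 1 member was higher and 2 lower, with 464 and 229 probes and 0 and 0 pathway genes. With each array left out, members higher lay between 1 and 3 and lower between 0 and 13, probes higher between 965 and 2931 and lower between 726 and 2580, and pathway genes higher between 1 and 5 and lower between 1 and 10.

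Replicate numbers did not pair the arrays, with correlations of the deviations of same-numbered arrays of -0.02, -0.0176 and 0.0495. With the replicate block, 1 member was higher and 4 lower, with 1714 and 1403 probes and 2 and 5 pathway genes, and the members past the threshold were Acaca, Acsl1, Cpt2, Crat and Etfdh.

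The sign of 7 members depended on the setting. Over the alternatives, Acsl3 ranged from -0.02 to 0.37, Acsl4 from -0.09 to 0.07, Acsl5 from -0.19 to 0.19 and Ehhadh from -0.36 to 0.14. Acadl was -0.038 under quantile normalization, -0.042 with the authors' values, -0.003 with array weights, -0.012 with the row block and in row 1 alone, and with each array left out between -0.053 and 0.063, with -0.027 without sham replicate 2 and -0.053 without tail-suspension replicate 2. Cpt1b was 0.024 under normexp, 0.151 as the mean of its probes and between -0.128 and 0.03 with each array left out, with 0.03 without tail-suspension replicate 3, and Cpt1a -0.044 as the mean of its probes. Of 20 alternatives, Acaca passed in 20, Lipe in 14, Acsl1 in 13, Slc27a1, Cpt2 and Crat each in 12 and Hsd17b4 in 10. The row block and row 1 alone are counted apart there but share their estimates of the differences. No planned value was lacking apart from the slide block.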

Other observations

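Genes of fatty acid synthesis and of the regulators of this pathway were read from the same arrays. None of the 7 synthesis genes passed the threshold, and replicate 2 of tail-suspension was the highest suspended array at 0 of 7. Scd2, a desaturase, was at 1.87, 2.16 and 1.90 in sham and 2.04, 0.97 and 1.999 after suspension, and Scd1 at -1.08, -1.03 and -0.93 in sham and -0.51, -1.25 and -0.21 after suspension, with replicate 2 the lowest array in each. Elovl6, an elongase, was at -2.58, -2.39 and -2.31 in sham and -2.64, -3.44 and -3.11 after suspension, without overlap (difference -0.64, adjusted p = 0.0713 by limma). Fasn, fatty acid synthase, was at -2.62, -2.89 and -2.78 in sham and -2.54, -2.48 and -2.40 after suspension, also without overlap (difference 0.29, adjusted p = 0.0826). These genes were picked out after their values were seen.

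Among 13 regulators, 1 passed as higher and 1 as lower, beside 10.5% and 11.2% of all genes. Pparg was at 1.62, 1.69 and 1.81 in sham and 2.39, 2.36 and 2.20 after suspension (0.61, adjusted p = 0.011 by limma). Ppargc1b, a coactivator of mitochondrial genes, was at 0.43, 0.36 and 0.66 in sham and -0.003, -0.16 and -0.11 after suspension, lower by -0.58 (adjusted p = 0.0177). Its relative Ppargc1a was at 3.95, 3.76 and 4.17 in sham and 4.54, 4.27 and 4.25 after suspension, all suspended arrays above sham, with a difference of 0.39 that did not pass (adjusted p = 0.0895). Ppara, the receptor that drives oxidation genes in heart, was at 4.22, 4.05 and 4.22 in sham and 4.31, 4.04 and 4.69 after suspension, which overlapped (difference 0.18, 95% interval -0.23 to 0.59), and replicate 2 was the lowest of the suspended arrays there.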
